A study of Mus musculus with 4 samples.

Results

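The genes described here are 9 genes of the integrated stress response and of growth arrest: Gdf15, Atf4, Ddit3, Ddit4, Ppp1r15a, Gadd45b, Gadd45g, Cdkn1a and Btg2. They were found by symbol and made up 10 of the 32285 gene entries of the series, because Ddit3 has a second entry (ENSMUSG00000116429) that held 0 UMIs in the analysed cells. All 9 were measured by 10x 3′ single-cell RNA sequencing in CD11b-positive cells of the mouse brain, in 4 libraries of 1 mouse each. The study asks what IL-6 does for microglia after damage to brain vessels.

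The 4 mice were 8 to 12 weeks old and carried the genotype labels IL6 WT (+/+) or IL6 KO (-/-), each once after sham surgery and once after cerebrovascular injury (CVI), at day 6. The injury was made with pulsed ultrasound and intravenous microspheres over thinned skull; a mild and a severe form are described, without saying which form these mice had. One label places the controls 6 days after sham surgery and another calls them uninjured. All tissue came from a 4 mm punch and was dissociated, cleared of myelin and selected on CD11b microbeads, so the cells of all 4 groups went through dissociation. Il6 itself was detected in every library, at 10.6 CPM (UMIs of the gene per 1e6 UMIs; 95% interval 8.58 to 12.9) in wild-type sham cells, 4.65 (3.96 to 5.42) in wild-type injury, 25.3 (22.7 to 28.3) in knockout-labelled sham and 22 (20.2 to 24.0) in knockout-labelled injury cells. The level was higher under the knockout label, so Il6 RNA does not bear out that label, and a 3′ tag outside a deleted part would not test it. The groups are therefore called knockout-labelled.

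Of the deposited 4425, 4731, 2682 and 4202 barcodes (wild-type sham, wild-type injury, knockout-labelled sham, knockout-labelled injury, the order used throughout), 957, 2883, 1362 and 2549 were analysed, with 15222380 to 40336067 UMIs deposited per library. The wild-type sham library stood apart: 22.4% of its barcodes passed the filters, against 51.9% to 63.3% in the other libraries, and 1874 of its barcodes failed on mitochondrial UMIs alone. The 2 sham libraries shared 135 deposited barcodes, 19 of them among analysed cells, whereas other pairs of libraries shared 2 to 14. Without shared barcodes, the number and the identity of the members past 2-fold were the same in all 9 comparisons. Cells were placed in 3 classes by marker genes. Microglia numbered 662, 1843, 1076 and 2115 cells and held Itgam UMIs in 87.4% to 91.4% of cells. Macrophages marked by Lyz2 and Ms4a7 numbered 529 in the wild-type injury and 60 in the knockout-labelled injury library, with 7 and 6 in the sham libraries, too few for a level. Border macrophages, marked by genes of perivascular and meningeal macrophages, numbered 70, 58, 56 and 55 cells. With 1 library per group there is no replicate spread and no p-value: every interval below covers counting error only, and mouse, library and group cannot be told apart.

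The integrated stress response couples several kinases to one step: they phosphorylate the translation factor eIF2 alpha, general protein synthesis falls, and the mRNA of the transcription factor ATF4 is translated better. ATF4 induces Ddit3 (which encodes CHOP), Ddit4 (an inhibitor of mTORC1) and Ppp1r15a (GADD34, the phosphatase subunit that removes the phosphate from eIF2 alpha). Gdf15 encodes a secreted stress cytokine induced through ATF4, CHOP and p53. Gadd45b and Gadd45g encode small proteins that bind kinases of the MAP kinase pathways and cell cycle proteins. Cdkn1a encodes the cyclin-dependent kinase inhibitor p21, and Btg2 encodes an antiproliferative adaptor that recruits mRNA deadenylases. Because ATF4 is controlled at translation, its mRNA level is not a measure of the activity of the pathway. Several of these genes are also immediate early genes, which respond to tissue dissociation.

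The windows upstream of the start sites were searched for the letters of known response elements, since the members were followed here as a group. RefSeq (GRCm38.p6, the assembly called mm10) gave a window for 9 of 9 members, 11 windows in all because Gdf15 and Cdkn1a have 2, each from 250 bases before to 50 after a start. On both strands, the ATF4 and C/EBP composite element TGATGNAA, the cyclic AMP response element TGACGTNA, the endoplasmic reticulum stress element (CCAAT and CCACG with 9 bases between), the AP-1 site TGANTCA, the CArG box and the NF-kB site were searched. No searched letters were found in the Gdf15, Atf4, Ddit4, Gadd45b and Cdkn1a windows, and 4 of 11 windows held 1 match each. Those 4 are shown for their 250 bases before the start, 5′ to 3′ on the strand of the gene, with the match in capitals.
Ddit3, chr10:127290543-127290792, plus strand: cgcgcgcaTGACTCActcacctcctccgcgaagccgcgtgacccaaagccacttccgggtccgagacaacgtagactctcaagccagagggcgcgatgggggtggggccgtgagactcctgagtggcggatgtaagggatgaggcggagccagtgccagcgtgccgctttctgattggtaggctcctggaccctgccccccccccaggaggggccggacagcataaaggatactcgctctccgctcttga
Ppp1r15a, chr7:45526269-45526518, minus strand: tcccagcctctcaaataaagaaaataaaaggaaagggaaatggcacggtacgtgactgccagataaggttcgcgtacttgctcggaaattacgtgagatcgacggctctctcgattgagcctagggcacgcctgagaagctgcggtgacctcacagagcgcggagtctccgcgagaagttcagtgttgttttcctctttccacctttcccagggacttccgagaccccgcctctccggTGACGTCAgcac
Gadd45g, chr13:51846425-51846674, plus strand: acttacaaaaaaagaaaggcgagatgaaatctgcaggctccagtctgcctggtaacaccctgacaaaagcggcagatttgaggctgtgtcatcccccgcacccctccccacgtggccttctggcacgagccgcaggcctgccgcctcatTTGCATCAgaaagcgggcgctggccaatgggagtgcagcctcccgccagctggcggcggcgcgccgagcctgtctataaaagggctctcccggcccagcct
Btg2, chr1:134079156-134079405, minus strand: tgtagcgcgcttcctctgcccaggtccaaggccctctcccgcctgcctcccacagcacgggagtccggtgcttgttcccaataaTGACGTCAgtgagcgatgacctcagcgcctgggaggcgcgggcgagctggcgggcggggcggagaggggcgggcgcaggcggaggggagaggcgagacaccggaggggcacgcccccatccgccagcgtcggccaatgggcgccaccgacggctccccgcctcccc
The Ddit3 match, at -242 to -236 from the start, fits TGANTCA, which 7.81% of all 32851 windows hold. The Ppp1r15a match, at -12 to -5, and the Btg2 match, at -166 to -159, both fit TGACGTNA, held by 2.93% of windows. The Gadd45g match, at -101 to -94, fits TGATGNAA on the opposite strand, held by 3.97% of windows. A match describes letters and is not a binding site.

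In microglia, Gadd45g was past 2-fold lower with injury under both labels, and Ddit4 under the wild-type label. Short of 2-fold, the levels of Atf4 and Ddit3 were lower and those of Cdkn1a and Gadd45b higher in both injury libraries, and Ppp1r15a and Btg2 were within 1.2-fold. A gene counts as past 2-fold when its log2 ratio, with 10 CPM added to each level, is at least 1 in size and it had at least 20 CPM in one of both libraries and 50 UMIs over the 4 libraries in that class. In the wild-type comparison 9 members could be tested, and Ddit4 and Gadd45g were past 2-fold lower and none higher; over all 6207 genes tested, 7.49% were lower, 3.51% higher and 11% either. The median log2 ratio was -0.75 over the members and -0.30 over all genes tested. In the knockout-labelled comparison 8 were tested, and Gadd45g alone was past 2-fold lower, where 1.42% of 6118 genes were lower and 2.47% higher (3.89% either), with medians of -0.39 and -0.21.

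**Figure D1:**
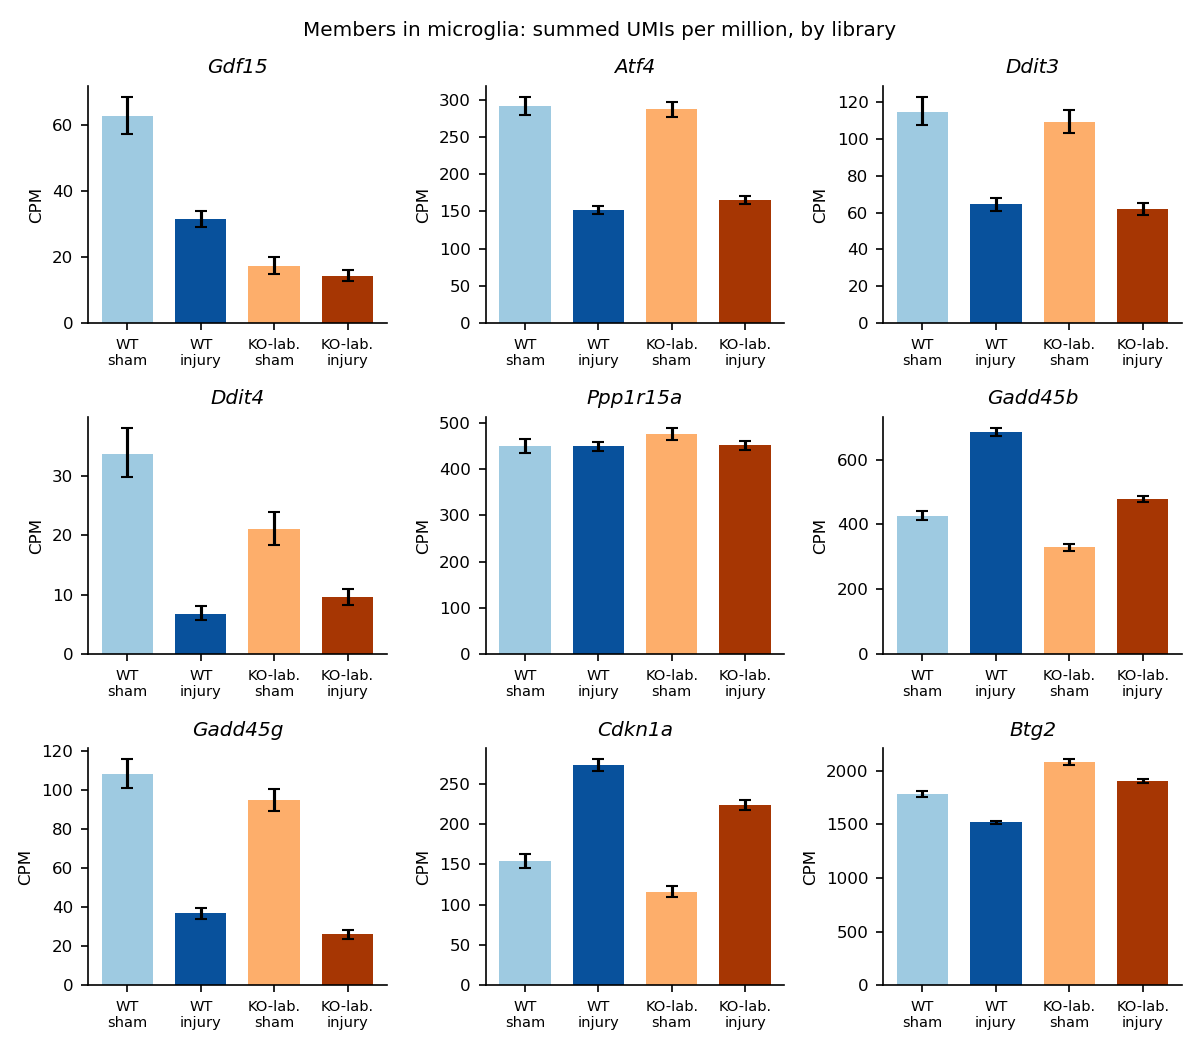
Level of each member in microglia (y axis, CPM of summed UMIs, each panel on its own scale from 0) in the 4 libraries (x axis); bars are single libraries and whiskers 95% Poisson intervals, which cover counting error only. Gadd45g and Atf4 are high in both sham libraries, Cdkn1a and Gadd45b in both injury libraries, and Gdf15 is highest in the wild-type sham library at 62.5 CPM.

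Atf4 (chromosome 15, 80255184 to 80257541, plus strand, positions here and below on GRCm38) stood at 291 CPM (95% interval 279 to 303) in wild-type sham, 152 (146 to 157) in wild-type injury, 287 (277 to 297) in knockout-labelled sham and 165 (160 to 171) in knockout-labelled injury microglia. Both sham libraries lay above both injury libraries, and the sham intervals overlapped each other. The injury level was 1.92-fold lower (1.82 to 2.03) under the wild-type label and 1.74-fold lower (1.66 to 1.83) under the knockout label, both short of the 2-fold rule. With cells held to at most 5% mitochondrial UMIs, Atf4 passed it in the wild-type comparison (log2 ratio -1.02). Over the alternatives its log2 ratio ran from -1.02 to -0.41 under the wild-type label and from -0.81 to -0.41 under the knockout label. The ratios lay in the lowest 10.7% and 4.67% of genes tested, whose median log2 ratios were -0.30 and -0.21. The knockout-labelled level was 0.987 (0.935 to 1.04) of the wild-type level after sham and 1.09 (1.04 to 1.15) after injury.

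Ddit3 followed the same order. It stood at 115 CPM (108 to 123), 64.5 (60.9 to 68.2), 109 (103 to 116) and 62.0 (58.7 to 65.5), so the 2 sham libraries could not be separated at this depth and neither could the 2 injury libraries. The injury level was 1.78-fold lower (1.64 to 1.95) and 1.76-fold lower (1.63 to 1.91), in the lowest 17.8% and 5.59% of genes tested. Over the alternatives the log2 ratios ran from -0.83 to -0.29 and from -0.81 to -0.40. A UMI of Ddit3 was found in 53%, 40.0%, 48.3% and 36.2% of microglia. The locus (chromosome 10, 127290774 to 127296288, plus strand) overlaps Mars and another gene, both on the opposite strand. It also overlaps the second Ddit3 entry, on its own strand and with 0 UMIs, so part of its reads could be uncertain.

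Ddit4 (chromosome 10, 59949669 to 59951834, minus strand) was sparse, at 33.7 CPM (29.7 to 38.0; 263 UMIs), 6.80 (5.68 to 8.07; 130 UMIs), 21.0 (18.4 to 24.0; 228 UMIs) and 9.60 (8.32 to 11.0; 201 UMIs). The wild-type libraries held both the highest and the lowest level. Both injury levels were under 20 CPM, so Ddit4 could be tested for injury only through the sham libraries, where it is high. Ddit4 fell 4.96-fold (4.00 to 6.16) with injury under the wild-type label, in the lowest 1.58% of genes tested, and passed the rule under all 14 alternatives run. Under the knockout label it was 2.19-fold lower (1.80 to 2.66), which did not pass the rule with 10 CPM added (log2 ratio -0.66). The 2 injury ratios differed by 0.72 on the log2 scale, a difference that was not tested. The knockout-labelled sham level was 0.625 (0.521 to 0.749) of the wild-type sham level.

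Ppp1r15a (chromosome 7, 45522916 to 45526268, minus strand) held nearly the same level in every library, at 450 (436 to 465), 449 (440 to 459), 475 (462 to 488) and 451 CPM (442 to 460). The injury ratio was 0.998 (0.959 to 1.04) under the wild-type label and 0.950 (0.918 to 0.983) under the knockout label. Under median-of-ratios scaling, its log2 ratios became 0.50 and 0.28, while the median over all genes became 0.16 (wild-type) and 0.11 (knockout-labelled). The direction of Ppp1r15a thus depends on the scaling.

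Gdf15 (chromosome 8, 70629393 to 70632456, minus strand) was the member whose level differed most between the labels. Its microglial level was 62.5 CPM (57.1 to 68.3) in wild-type sham, 31.4 (29.0 to 34.0) in wild-type injury, 17.3 (14.9 to 19.9) in knockout-labelled sham and 14.3 (12.8 to 16.0) in knockout-labelled injury cells. Both wild-type libraries lay above both knockout-labelled ones. Both knockout-labelled levels were under 20 CPM, so Gdf15 could be tested between labels only through the wild-type libraries, where it is high. Its rank and its call in microglia carry that limit. After sham, Gdf15 was 3.62-fold lower (3.05 to 4.31) under the knockout label and had the lowest log2 ratio of the 6128 genes tested; it was the single member past 2-fold of 9 tested, against a background of 0.0979% lower, 0.0653% higher and 0.163% either. After injury the knockout-labelled level was 2.19-fold lower (1.91 to 2.53), which did not pass with 10 CPM added (log2 ratio -0.77) and passed with 1 CPM added (-1.08) or with clusters in place of the marker gate (-1.04). None of the 8 members tested after injury passed, nor did any gene higher, where 0.502% of 5377 genes passed lower. The members' median log2 ratio between labels was -0.17 after sham, against -0.00 over all genes, and -0.16 after injury, against 0.07.

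Few microglia carried Gdf15, and some of them held many UMIs. The 488, 601, 187 and 300 UMIs lay in 58 of 662, 142 of 1843, 34 of 1076 and 70 of 2115 cells, or 8.76%, 7.70%, 3.16% and 3.31%. After thinning each cell to 2000 UMIs, which left out 43, 91, 80 and 127 shallower cells, the shares were 4.2%, 3.25%, 1.51% and 1.81%. A single microglial cell held up to 54, 27, 33 and 17 Gdf15 UMIs, and the variance was 19.9, 10.0, 14.0 and 8.44 times the mean. In endothelial-like cells, which served as background, 0 of 28, 2 of 81, 1 of 48 and 2 of 134 cells had a Gdf15 UMI, or 0% (which allows up to 10.7%), 2.47%, 2.08% and 1.49%, at median depths of 5760.5, 4462, 6616.5 and 4250 UMIs against 8587 to 8724 in microglia. All 4 microglial shares lie inside the 95% intervals of that background, so detection cannot be told from free RNA by its share alone. Cells with 5 or more Gdf15 UMIs numbered 25, 38, 11 and 21.

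Microglia with a Gdf15 UMI were no richer in the upstream transcripts. Atf4 in cells with Gdf15 was 0.850 (0.750 to 0.962), 0.726 (0.629 to 0.833), 1.01 (0.853 to 1.18) and 1.15 (0.981 to 1.33) of its level in cells without, and Ddit3 was 0.845, 0.852, 0.796 and 0.789. Cdkn1a was 2.07 (1.87 to 2.29) times as high in the Gdf15-positive cells of the knockout-labelled injury library, and between 0.892 and 1.03 in the other 3 libraries. Ranked by the smallest of the 4 libraries' log2 differences, Tnfsf9, a costimulatory ligand of the tumour necrosis factor family, led the genes higher in positive microglia of all 4 libraries, at 54.0 against 38.1, 118.3 against 82.6, 36.6 against 22.5 and 131.4 against 74.9 CPM. The positive cells were deeper, with median UMIs of 14213.5 against 8518.5, 11339.5 against 8437, 10219.5 against 8513 and 10326.5 against 8673; the part of depth in these values was not tested.

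Among the growth-arrest genes, Gadd45g (chromosome 13, 51846678 to 51848468, plus strand) had the clearest injury difference. It stood at 108 CPM (101 to 116), 36.7 (34.1 to 39.6), 94.8 (89.0 to 101) and 25.9 (23.8 to 28.2), and was found in 41.5%, 21.3%, 36.7% and 15% of microglia. Gadd45g fell 2.94-fold (2.66 to 3.26) with injury under the wild-type label and 3.65-fold (3.29 to 4.06) under the knockout label, in the lowest 1.84% and 0.163% of genes tested. The knockout-labelled call held under every alternative run, whereas median-of-ratios scaling took the wild-type one to a log2 ratio of -0.90.

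Gadd45b (chromosome 10, 80930073 to 80932204, plus strand) went the other way, at 427 CPM (412 to 442), 685 (673 to 697), 329 (319 to 340) and 478 (469 to 487). The injury level was 1.60 times (1.54 to 1.67) and 1.45 times (1.40 to 1.51) the sham level, and within each condition the knockout-labelled library was the lower, at 0.772 (0.736 to 0.810) after sham and 0.698 (0.680 to 0.716) after injury. Cdkn1a (chromosome 17, 29090976 to 29100727, plus strand) had the same order of libraries, at 154 (146 to 163), 273 (266 to 280), 116 (110 to 123) and 224 CPM (217 to 230). Its injury level was 1.77 times (1.66 to 1.89) and 1.93 times (1.81 to 2.05) the sham level, higher than 95% and 97.0% of genes tested. Neither gene passed the 2-fold rule; with median-of-ratios scaling Cdkn1a passed in both comparisons (log2 ratios 1.28 and 1.23) and Gadd45b in the wild-type one (1.18).

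Btg2 (chromosome 1, 134075170 to 134079120, minus strand) was detected in 92.1%, 93.5%, 92.3% and 90.2% of microglia, at 1787 CPM (1758 to 1817), 1519 (1501 to 1536), 2082 (2055 to 2109) and 1906 (1887 to 1925). The knockout-labelled libraries were higher in both conditions, at 1.16 times (1.14 to 1.19) and 1.25 times (1.24 to 1.27) the wild-type level. The injury ratios were 0.850 (0.833 to 0.867) and 0.915 (0.901 to 0.931), and median-of-ratios scaling turned both directions (log2 ratios 0.28 and 0.24).

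The make-up of microglia differed between sham and injury. Clusters were built without the 9 members. In the sham libraries most microglia lay in a cluster led by Hspa1b, Hspa1a and P2ry13 (28.5% and 43.5%) or in one led by Slc5a3 and Ints6 (48.9% and 32.8%), whereas 4.88% and 7.47%, and 4.02% and 3.55%, of injury microglia did. Injury microglia were spread over clusters led by Il1a and Rrad, Lag3, Lpl and Ch25h, Ifit3, and Cd5l and Spp1. The Cd5l and Spp1 cluster held 18.2% of wild-type injury, 2.17% of knockout-labelled injury and 0% of sham microglia. Values within the 2 sham clusters set 90 and 74 wild-type injury cells against 189 and 324 sham cells, and 158 and 75 knockout-labelled injury cells against 468 and 353.

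**Figure D2:**
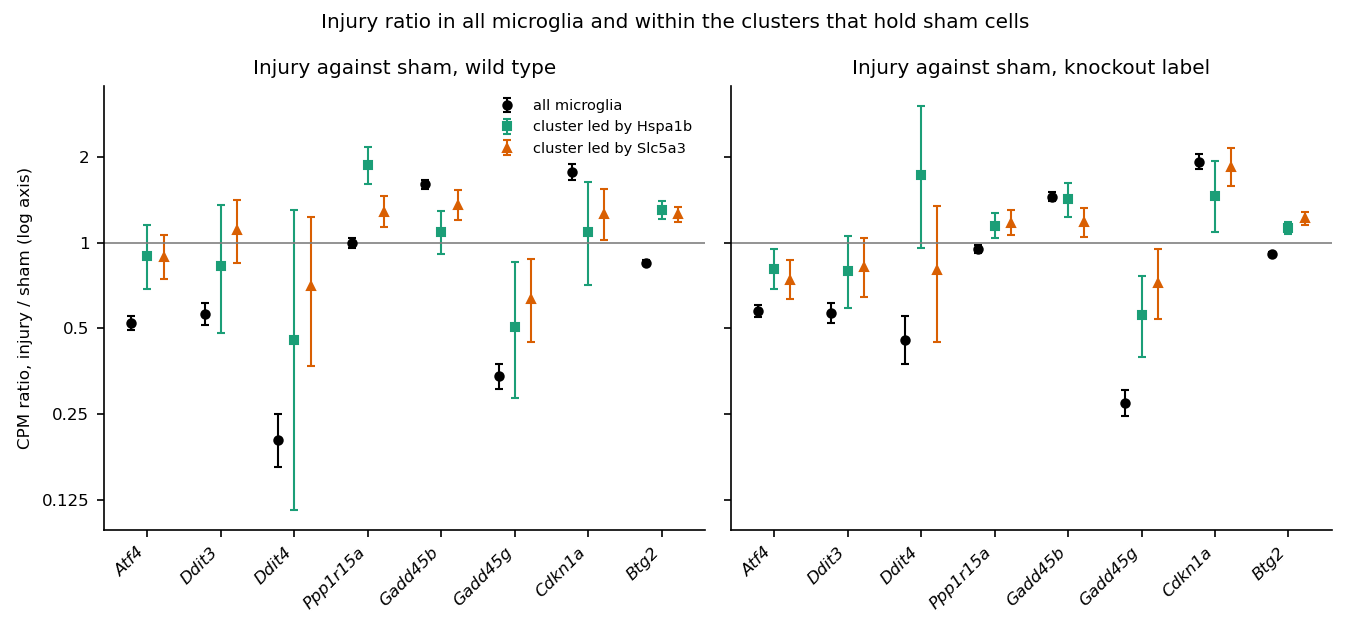
CPM ratio of injury to sham (y axis, log scale) for each member but Gdf15 (x axis) in all microglia and within the 2 clusters that hold most sham cells, for the wild-type labels (left) and the knockout labels (right); whiskers are 95% intervals of counting error. Atf4 and Ddit3 sit closer to 1 within clusters than over all microglia, and Gadd45g stays below 1 in all 4 within-cluster ratios.

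Within these clusters Atf4 and Ddit3 were closer to their sham levels than over all microglia. The Atf4 injury ratio was 0.894 (0.689 to 1.15) in the Hspa1b cluster and 0.894 (0.744 to 1.07) in the Slc5a3 cluster under the wild-type label, and 0.810 (0.687 to 0.951) and 0.742 (0.632 to 0.868) under the knockout label. For Ddit3 the 4 ratios ran from 0.795 to 1.11 and for Ddit4 from 0.454 to 1.72, with every interval including 1. Gadd45g remained lower, at 0.506 (0.284 to 0.852), 0.635 (0.448 to 0.877), 0.558 (0.398 to 0.767) and 0.723 (0.540 to 0.951). Cdkn1a was at 1.09 (0.713 to 1.63), 1.26 (1.02 to 1.54), 1.46 (1.09 to 1.93) and 1.85 (1.58 to 2.16). Ppp1r15a was above 1 in all 4, at most 1.87 (1.61 to 2.17) in the wild-type Hspa1b cluster. Btg2, lower with injury over all microglia, was higher within the Hspa1b and Slc5a3 clusters. Its injury and sham levels there were 1932 against 1482 and 2478 against 1969 CPM under the wild-type label. Under the knockout label they were 1955 against 1740 and 3013 against 2476 CPM.

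Gdf15 with injury was at 13.3 CPM (7 UMIs) against 145.7 CPM in the wild-type Hspa1b cluster (11.0-fold lower, 5.23 to 27.6). It was at 37.9 against 32.5 CPM in the knockout-labelled one (ratio 1.17, 0.806 to 1.66). In the Slc5a3 cluster Gdf15 was at 2.25 CPM (1 UMI) against 27.8 CPM (135 UMIs) under the wild-type label. Under the knockout label Gdf15 had 0 UMIs with injury there (interval up to 5.98 CPM) and 28 UMIs after sham (5.65 CPM). Its difference between labels after sham was present within both sham clusters. In the Hspa1b cluster Gdf15 was at 145.7 CPM in wild-type and 32.5 in knockout-labelled cells, a ratio of 0.223 (0.178 to 0.279), and in the Slc5a3 cluster at 27.8 and 5.65 CPM, a ratio of 0.203 (0.130 to 0.307). After injury the ratio was 0.239 (0.173 to 0.327) in the Il1a cluster, 0.576 (0.413 to 0.803) in the Lag3 cluster, 0.635 (0.457 to 0.874) in the Lpl cluster and 0.661 (0.431 to 1.02) in the Ifit3 cluster. In the cluster led by Ccl6 and Il4i1 Gdf15 was at 3.19 CPM (3 UMIs in 80 cells) against 106.7 CPM (59 UMIs in 53 cells), a ratio of 0.0299 (0.00599 to 0.0917). It was reversed in the Hspa1b cluster, at 2.85 (1.27 to 7.52), where the wild-type side rests on 90 cells. Of the 488 UMIs in wild-type sham microglia, 226 lay in the Hspa1b cluster, 135 in the Slc5a3 cluster and 109 in 62 cells of a cluster led by the neuronal genes Nrgn and Snap25. Without cells of such unnamed clusters the sham log2 ratio between labels was -1.22, against -1.41 with them.

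Genes known to respond to dissociation differed in level between sham and injury libraries. The summed level of 28 immediate early genes was 34275, 27846, 35196 and 30188 CPM in microglia. Of these genes, the heat shock genes Hspa1a and Hspa1b summed to 676, 137, 839 and 133 CPM, high in both sham libraries. Ccl3, of the same list, was higher with injury under both labels. Neuronal marker genes summed to 165, 20.9, 162 and 26.6 CPM. The part of dissociation in the member values was not tested. To set cells of like level side by side, microglia of all 4 libraries were ranked together by their share of immediate early UMIs and cut into low, middle and high groups of nearly equal size, which held 166, 242 and 254 wild-type sham cells and 670, 630 and 543 wild-type injury cells. The other 2 libraries gave 298, 336 and 442, and 765, 690 and 660 cells.

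**Figure D3:**
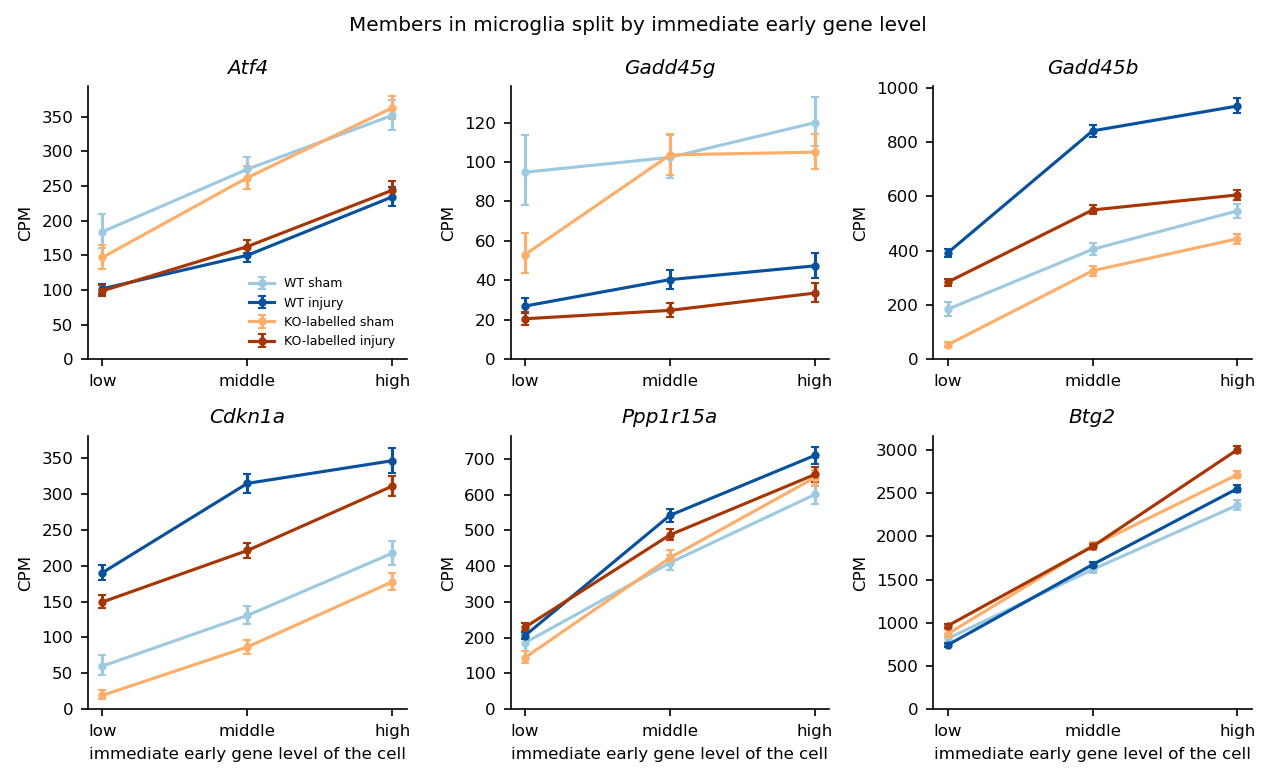
Level of Atf4, Gadd45g, Gadd45b, Cdkn1a, Ppp1r15a and Btg2 in microglia (y axis, CPM, from 0) in cells with a low, middle or high share of immediate early UMIs (x axis), 1 line per library, with 95% Poisson intervals. All 6 are higher in the high than in the low group of all 4 libraries, and Atf4 and Gadd45g are lower in injury than in sham cells of the same group.

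From the low to the high group, Btg2 went from 815 to 2361 CPM in wild-type sham, from 741 to 2554 in wild-type injury, from 870 to 2715 in knockout-labelled sham and from 963 to 3004 in knockout-labelled injury cells. Atf4 went from 184 to 352, from 102 to 234, from 147 to 363 and from 98.8 to 244. Ddit3, Ddit4 and the other members plotted were also higher in the high than in the low group of every library. Gdf15 was not in wild-type injury cells, where it went from 35.7 to 24.7. It went from 28.4 to 84.0 in wild-type sham and from 9.34 to 19.7 in knockout-labelled sham cells. In knockout-labelled injury cells Gdf15 went from 12.9 to 16.1, with overlapping intervals. The groups match cells only in part: the low group had a summed immediate early level of 16199 CPM in wild-type sham and 13891 in wild-type injury cells. List genes such as Ccl3 and Hspa1a differed with injury, so cells of the same group need not be alike in dissociation. Within groups the injury differences kept their direction for Atf4, with ratios of 0.553, 0.547 and 0.666 in the wild-type low, middle and high groups. The knockout-labelled ratios were 0.672, 0.621 and 0.672. Gadd45g was at 0.284, 0.395 and 0.395, and at 0.387, 0.239 and 0.320. Cdkn1a was at 3.17 (2.51 to 4.07), 2.41 (2.18 to 2.67) and 1.59 (1.46 to 1.75), and at 7.80 (5.66 to 11.0), 2.55 (2.27 to 2.88) and 1.75 (1.62 to 1.90), so its injury ratio was largest in the cells with the least immediate early RNA. Gadd45b did likewise under the knockout label, at 5.35 (4.41 to 6.56), 1.69 and 1.36. Its sham levels there were 53.1, 326 and 444 CPM and its injury levels 284, 550 and 606 CPM. Ppp1r15a, level over all microglia, was at 1.11 (0.965 to 1.28), 1.32 (1.24 to 1.41) and 1.18 (1.12 to 1.25) under the wild-type label. Under the knockout label it was at 1.59 (1.40 to 1.81), 1.15 (1.09 to 1.22) and 1.01 (0.968 to 1.06). Gdf15 under the wild-type label was at 1.26 (0.884 to 1.85) in the low and 0.294 (0.235 to 0.367) in the high group, while its ratio between labels after sham was 0.329, 0.331 and 0.234 in the 3 groups.

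The members also differed between states of injury microglia. Cdkn1a was highest in the Lpl and Ch25h cluster, at 453 CPM in wild-type and 386 in knockout-labelled injury cells, and in the cluster led by the mitotic gene Birc5 (483 CPM in wild-type injury), and was at 64.6 and 63.5 CPM in the Hspa1b cluster. Gadd45b was at 996 and 776 CPM in the Lpl cluster. Btg2 was at 2562 and 2750 CPM in the Il1a cluster. Cells called cycling by G2/M genes made up 0 of 662, 53 of 1843 (2.88%), 1 of 1076 and 39 of 2115 (1.84%) microglia; a count of 0 of 662 allows a share of up to 0.453%. In the injury libraries Cdkn1a, an inhibitor of the cell cycle, was higher in cycling than in other microglia, at 464 against 264 CPM (ratio 1.76, 1.59 to 1.95) and at 716 against 208 CPM (3.44, 3.12 to 3.79). Btg2 was lower in cycling cells, at 897 against 1548 CPM (0.580, 0.539 to 0.622) and at 1148 against 1930 (0.595, 0.552 to 0.640), and Ppp1r15a was at 0.607 and 0.578 of its level in other cells.

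The Lyz2/Ms4a7 macrophages of the injury libraries had another profile, with much Gdf15 and little Ppp1r15a and Btg2. In the wild-type injury library they made up 18.3% of cells, and in the knockout-labelled one 2.35%; the CD11b selection sets such shares in part. Within the wild-type injury library Gdf15 was 5.82 times (5.30 to 6.39) its microglial level, Ppp1r15a was 3.11-fold lower, Btg2 2.31-fold lower and Gadd45b 1.41-fold lower, while Cdkn1a (1.02, 0.970 to 1.06) and Gadd45g (1.04, 0.913 to 1.17) did not differ beyond counting error. In the knockout-labelled injury library the same ratios were 3.77 (2.76 to 5.08) for Gdf15, 4.29-fold lower for Ppp1r15a, 2.71-fold lower for Btg2 and 2.12-fold lower for Gadd45b. Median depth was 17226 and 12625.5 UMIs per macrophage.

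Between the labels, Gdf15 in these macrophages was at 183 CPM (175 to 191) in wild-type and 54.1 (40.4 to 70.9) in knockout-labelled cells, 3.38-fold lower (2.57 to 4.54). Gadd45b was at 484 and 226 CPM, 2.14-fold lower (1.87 to 2.47). These were the 2 members past 2-fold, both lower, of 8 tested, where 0.699% of 5148 genes were lower, 0.602% higher and 1.3% either; the median log2 ratio was -0.07 over the members and 0.06 over all genes. With doublets left in, Gadd45b no longer passed. The other members tested lay between 0.728 (0.589 to 0.891, Ppp1r15a) and 1.16 (0.858 to 1.54, Ddit3), with Atf4 at 105 and 110 CPM, and Cdkn1a at 277 and 254 CPM.

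**Figure D4:**
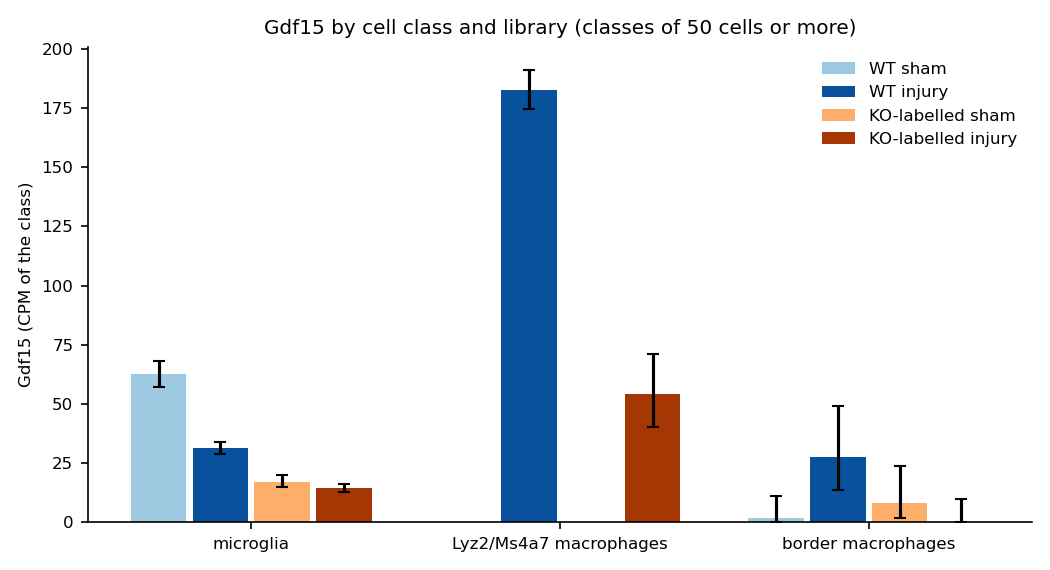
Gdf15 level (y axis, CPM of the class, from 0) in microglia, Lyz2/Ms4a7 macrophages and border macrophages (x axis) of the 4 libraries; whiskers are 95% Poisson intervals of counting error, and classes under 50 cells are left out. The macrophages of the wild-type injury library stand highest at 183 CPM, and the knockout-labelled bars are the lower of each pair in microglia and macrophages.

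By cell, 244 of 529 wild-type injury macrophages (46.1%, 41.8% to 50.5%) and 13 of 60 knockout-labelled ones (21.7%) held Gdf15, or 17.9% and 5.08% after thinning to 2000 UMIs. The wild-type UMIs, 1873 in all, were spread over many cells, with 107 cells at 5 or more and a maximum of 64. All 7 and 6 macrophages of the sham libraries held 0 Gdf15 UMIs. Ranked by the smaller of the 2 libraries' log2 differences, a ranking chosen after the values were seen, the lipid phosphatase Plpp3 (47.1 against 18.1 CPM and 69.8 against 17.4) and Mfge8, a bridge for the uptake of dying cells (115.5 against 35.5 and 21.2 against 7.92), led the genes higher in Gdf15-positive macrophages. Gpnmb, a marker of lipid-laden phagocytes, was at 4335 against 2776 CPM and 6602 against 3372, and Fabp5, a fatty acid carrier, at 5652 against 3607 and 4064 against 2050. They were also deeper, at 19550 against 15536 and 23567 against 11990 median UMIs, and the part of depth was not tested.

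Border macrophages held few UMIs, and 7 members could be tested. Of these none passed in the wild-type injury comparison (1.9% higher and 3.07% lower, 4.97% either, of 4431 genes) or between labels after injury (2.15% higher and 1.45% lower, 3.59% either, of 4428 genes). Gadd45b stood at 454 (396 to 517), 639 (563 to 722), 438 (373 to 512) and 682 CPM (600 to 772), so that, as in microglia, the injury level was the higher, at 1.41 times (1.17 to 1.69) and 1.56 times (1.27 to 1.91). Gadd45g stood at 40.3 (20 UMIs), 34.9 (14), 126 (46) and 32.5 CPM (12), with the knockout-labelled sham library above the other 3. Cdkn1a stood at 216 (107 UMIs), 157 (63), 63.0 (23) and 160 CPM (59), with the same library below the other 3. In the knockout-labelled injury comparison Cdkn1a rose 2.53-fold (1.54 to 4.30) and Gadd45g fell 3.88-fold (2.02 to 8.05), 1 higher and 1 lower, where 3.19% of 4425 genes passed (1.63% higher, 1.56% lower). Between labels after sham Gadd45g was 3.13 times (1.81 to 5.58) as high and Cdkn1a 3.42-fold lower (2.17 to 5.63), where 2.49% of 4426 genes passed (0.881% higher, 1.6% lower).

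The knockout-labelled sham library decides all 4 of these calls. The members' median log2 ratios in the 4 border comparisons were -0.35, 0.10, 0.09 and 0.02, against -0.10, -0.01, 0.08 and -0.02 over all genes. Btg2, at 1145, 1071, 1535 and 1729 CPM, was 1.34 times (1.19 to 1.51) and 1.62 times (1.43 to 1.83) as high under the knockout label after sham and injury. Gdf15 had 1, 11, 3 and 0 UMIs, and its single-library excess after wild-type injury went with a higher sum of Lyz2/Ms4a7 macrophage markers in that library's border class (18596 CPM, against 9863 to 11157 in the others). Dendritic cell markers summed to 5924, 1278, 3472 and 2704 CPM in the border class, since its gate holds no limit on them. The part of these other cell types was not tested.

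The companion lists give the other genes of these pathways. In microglia of the wild-type comparison, 2 of 24 tested ATF4 and CHOP target genes (of 39 measured) were past 2-fold higher, the serine synthesis enzyme Psat1 (87.6 against 11.8 CPM, 7.43-fold) and the cystine transporter Slc7a11 (37.8 against 4.23, 8.96-fold), and 1 lower, the amino acid transporter Slc38a2 (190 against 529, ratio 0.359). Over all genes tested 11% passed in either direction in the wild-type comparison. The count of this list and those of the eIF2, chaperone, p53 and growth-arrest lists lie near or below that share. Under the knockout label 3.89% of all genes passed. There 2 of 22 ATF4 and CHOP target, 1 of 14 eIF2, 0 of 20 chaperone, 1 of 15 p53 and 1 of 10 growth-arrest genes passed. With 1 or 2 genes each, all but the chaperone list were above that share. Psat1 and Slc7a11 were also higher under the knockout label, 3.28-fold and 6.99-fold, as 2 of 22 tested, with none lower. Psat1 and Slc7a11 were under 20 CPM in both sham libraries, so they could be tested only through the injury library where they are high. In the wild-type comparison the median log2 ratio of the ATF4 and CHOP target genes was -0.06, against -0.30 over all genes.

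None of 16 tested genes of the eIF2 pathway passed in the wild-type comparison; under the knockout label 1 of 14 did, Eif2ak2, the interferon-induced kinase PKR (76.0 against 30.4 CPM, 2.50-fold higher). Of 20 chaperone and unfolded protein response genes 1 was lower in wild-type microglia, Dnajb9, an endoplasmic reticulum co-chaperone (96.6 against 261 CPM), and 0 passed under the knockout label. Of the p53 targets other than Cdkn1a, 1 of 14 and 1 of 15 passed, both times Ccnd1, which encodes cyclin D1 (ratios 0.336 and 0.422). Of the relatives of the growth-arrest members, 1 of 13 and 1 of 10 passed, both times Tob1, an antiproliferative gene related to Btg2 (ratios 0.229 and 0.280). Glucocorticoid-responsive genes gave 5 lower of 10 in the wild-type comparison, where 7.49% of all genes tested were lower. Among them were Errfi1 (0.326), Sult1a1 (0.294) and Mertk (0.435). Sult1a1, at 14.7 CPM with injury, could be tested only through the sham library. Under the knockout label 0 of 10 passed, where 1.42% of all genes tested were lower. The difference between labels was not tested, and the balance of all calls depended on the scaling, as given at the end.

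**Figure D5:**
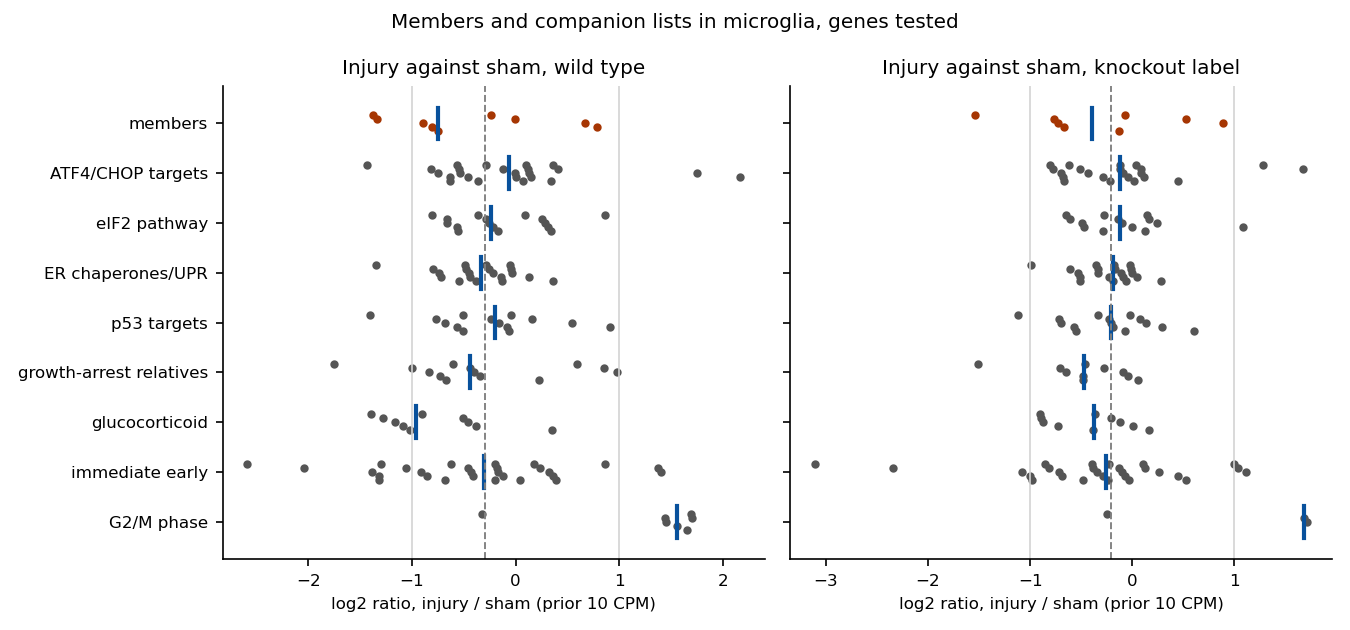
Log2 ratio of injury to sham in microglia (x axis, 10 CPM added) for each tested member and each tested gene of the 8 companion lists (y axis), for the wild-type labels (left) and the knockout labels (right); points are genes, blue bars the list medians, the dashed line the median of all genes tested and light lines the 2-fold limits. The members spread from Ddit4 at -1.38 to Cdkn1a at 0.79 in the wild-type comparison, and the G2/M genes lie to the right.

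The immediate early list had 2 genes higher and 7 lower of 28 in the wild-type comparison, with Hspa1b (0.109) and Hspa1a (0.229) lower and Ccl3 (2.66-fold) higher. It had 2 higher and 4 lower of 28 under the knockout label. Hspa1b was under 20 CPM in both injury libraries, so it could be tested only through the sham libraries. Over all genes tested 3.51% were higher and 7.49% lower in the wild-type comparison, and 2.47% and 1.42% under the knockout label. Of the G2/M genes, 6 of the 7 that could be tested out of 20 were higher, among them Cdk1 (10.9-fold), Ube2c (20.6-fold) and Birc5 (24.1-fold), and 2 of 3 under the knockout label; the 3 named genes were at 2.94, 1.28 and 1.02 CPM in wild-type sham cells and could be tested only through the injury library. Between labels no gene of any list passed in microglia, after sham or after injury. In the macrophages Klf9, a glucocorticoid-induced factor, was at 27.0 against 5.56 CPM, 4.86 times as high under the knockout label. Klf9 could be tested only through the knockout-labelled library. Of the G2/M genes, 3 of 5 tested were lower under the knockout label, Cenpa (0.311), Ube2c (0.195) and Birc5 (0.243). All 3 were under 20 CPM in the knockout-labelled library and could be tested only through the wild-type library. Over all genes tested in macrophages, 0.699% were lower and 0.602% higher. None of the other 6 lists had a gene past 2-fold there.

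In border macrophages the lists gave scattered calls from few UMIs. Tested were 14 ATF4 and CHOP target, 10 eIF2, 18 chaperone, 12 p53, 6 growth-arrest, 10 glucocorticoid, 28 immediate early and 2 G2/M genes. Over all genes tested, 4.97% passed with wild-type injury and 3.19% with knockout-labelled injury. Between labels 3.59% passed after injury and 2.49% after sham. With wild-type injury Slc38a2 (0.441), Manf (0.420), Ccnd1 (0.309), Errfi1 (0.424), Hspa1a (0.272) and Hspa1b (0.360) were lower and Sgk1 (2.71-fold) and Rgs1 (25.1-fold) higher. With injury under the knockout label Dnajb9 (0.412) and Hspa1b (0.150) were lower and Pmaip1 (5.93-fold), Rgs1 (3.79-fold) and Dusp2 (5.43-fold) higher. Of the higher genes, Pmaip1, Rgs1 and Dusp2 were under 20 CPM in knockout-labelled sham cells and could be tested only through the injury library. Between labels, Nupr1, Sgk1 and Rgs1 were lower and Ccnd1, Fkbp5, Hspa1a and Klf2 higher after injury. After sham, Pmaip1, Plk2 and Dusp2 were lower and Hspa1b higher. Of these, Nupr1 after injury and Pmaip1 and Dusp2 after sham were under 20 CPM in the knockout-labelled library. They could be tested only through the wild-type library. The eIF2, growth-arrest and G2/M lists had no gene past 2-fold in any border comparison.

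Across 10 sums of class and library, the genes most alike to each member in log2 level were, of 5720 genes, Usp12 (Pearson r 0.900), Gngt2 (0.879) and Tnfaip2 (0.878) for Gdf15. For Atf4 they were Hnrnpa3 (0.986), Hspa1b (0.985) and Srsf2 (0.985), and for Ddit3 Prpf39 (0.979), Mast3 (0.978) and Csnk2a1 (0.977). Bin1 (0.982), Nfkbia (0.970) and Marcks (0.962) were closest to Ppp1r15a, and Ddah2 (0.979), Junb (0.979) and Tmed9 (0.977) to Btg2. For Gadd45g they were Capza1 (0.926), Rnf44 (0.924) and Mapkap1 (0.909), for Cdkn1a Mrpl45 (0.898), Cpd (0.888) and Tmem208 (0.883), and for Gadd45b Npl (0.855), Fbxw4 (0.853) and Upf3a (0.844). Ddit4 was too low for this measure. The sums share libraries and cell classes, so these values describe a pattern and carry no test. Atf4 had a heat shock gene, Hspa1b, among its 3 closest.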

How the data were processed

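The authors deposited, for each of 4 libraries, a matrix of unnormalized UMI counts by gene and barcode. The submitters' processing notes name Cell Ranger 6.0.1 and the build mm10. The members and the companion lists were chosen with earlier results of these data known. Barcodes were kept from 500 genes and 1000 UMIs upwards, with a mitochondrial share up to 10%, and the highest Scrublet scores (35, 113, 30 and 89 barcodes) were left out at 0.8% per 1000 barcodes. Analysed cells had median depths of 7638, 10016, 8106.5 and 8443 UMIs.

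Each cell was placed in a class by its summed marker UMIs per 10000: microglia from 100 and more than 2 times the Lyz2/Ms4a7 macrophage sum, Lyz2/Ms4a7 macrophages from 100 and more than the microglia sum, both under 30 for border and up to 50 for dendritic markers, and border macrophages from 30 with under 150 of microglia markers. Cells above 20 for a list of non-myeloid cells, neutrophils or T and NK cells were left out. The marker lists were fixed with the design, and the limits of the gates after cells had been seen; the border gate was left without a dendritic cell limit because 1 library would have fallen below 50 cells. Leiden clusters (scanpy 1.11.5, leidenalg 0.10.2, 2000 variable genes without the members, 30 components, 15 neighbours, resolution 1) served as an alternative and for values within clusters.

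UMIs were summed by class and library and divided by the class total (CPM). Intervals at 95% are exact Poisson for a level, exact conditional binomial for a ratio and Clopper-Pearson for a share; UMIs of 1 cell are not independent, so they cover counting error only. A gene was tested with at least 20 CPM in one of both libraries and 50 UMIs over 4 libraries, and the 2-fold rule was read on log2 ratios with 10 CPM added. Shares were also taken after thinning to 2000 UMIs, and a 0 was limited by 3 counts. Of the lists, up to 3 genes past 2-fold with the largest log2 ratio are named per comparison; of each member, the 3 genes most correlated. The call rule was tested on simulated counts. Tools were Python 3.11.15, numpy 2.4.6, scipy 1.17.1, pandas 2.3.3, scikit-learn 1.9.0 and matplotlib 3.10.9. Gene positions are from GENCODE on GRCm38, promoter windows from RefSeq. The alternatives were median-of-ratios scaling, equal weight per cell, clusters, stricter gates, other cell filters, no doublet removal, another added CPM, trimming, no low-count filter and thinning.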

Additional observations from a re-analysis of the deposited data

Results flagged for a closer look

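The injury log2 ratios of Cdkn1a, the gene of the cell cycle inhibitor p21, had opposite signs in the border macrophages of the 2 genotype labels. Under the wild-type label the level was 216 CPM after sham and 157 after injury (log2 ratio -0.43, short of 2-fold; its sign turned with clusters, 0.15, and with the stricter gate, 0.08), and under the knockout label 63.0 after sham and 160 after injury (log2 ratio 1.22). The 2 log2 ratios differed by 1.65. The difference was not tested, since each group is 1 library, and it rests on 107, 63, 23 and 59 UMIs. The knockout-labelled sham value, the lowest of the 4, sets its size: the 2 injury levels were nearly the same (ratio 1.02, 0.700 to 1.47).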

How the results depend on the processing

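No paired analysis was possible because each group is 1 library, and for the same reason no library could be left out. Of the 81 member log2 ratios, 47 kept their direction under every alternative and 34 did not, and none that was past 2-fold reversed. Past 2-fold in microglia under every alternative that gave a value were Ddit4 with wild-type injury, Gadd45g with knockout-labelled injury and Gdf15 between labels after sham. So were Gdf15 between labels in macrophages and Cdkn1a in border macrophages with knockout-labelled injury. Gadd45g in border macrophages with knockout-labelled injury did not pass the rule with thinned cells, where Gadd45b did (log2 ratio 1.57). With wild-type injury in microglia (2 members), median-of-ratios scaling gave 3 (Ddit4, Gadd45b and Cdkn1a, without Gadd45g) and cells at 5% mitochondrial UMIs 3 (Atf4 added). Counts of members moved by over 1.5 times, or between 0 and 1, as follows, each with the cause not tested. With knockout-labelled injury in microglia (1 member), median-of-ratios scaling gave 2 (Gadd45g and Cdkn1a) and 1 CPM added gave 2 (Gadd45g and Ddit4). Between labels in injured microglia (0), clusters and 1 CPM added gave 1 each (Gdf15). In macrophages (2), leaving doublets in gave 1 (Gdf15). In border macrophages with wild-type injury (0), clusters gave 1 (Gdf15), the stricter gate 1 (Gadd45b) and no low-count filter 1 (Gdf15); with knockout-labelled injury (2), clusters gave 4 (Gdf15, Atf4, Gadd45g and Cdkn1a); between labels after injury (0), clusters and no low-count filter gave 1 each (Gdf15); after sham (2), the stricter gate gave 1 (Gadd45g) and thinned cells 1 (Cdkn1a). Border macrophages with knockout-labelled injury had too few cells at 5% mitochondrial UMIs for a value. Companion genes past 2-fold in microglia went from 26 to 16 with equally weighted and 16 with thinned cells (wild-type injury), from 13 to 20 with 1 CPM added (knockout-labelled injury) and from 0 to 1 with clusters (between labels after injury).

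In 5 of the 9 comparisons scaling moved the balance of all calls. Median-of-ratios scaling moved the share of higher calls from 31.9% of 683 to 87.2% of 617 genes with wild-type injury and from 63.4% of 238 to 91.5% of 307 with knockout-labelled injury in microglia. It moved it from 46.3% of 67 to 35.8% of 67 in macrophages, from 38.2% of 220 to 52.4% of 212 in border macrophages with wild-type injury, and from 59.7% of 159 to 46.1% of 165 between labels after injury. In the other 4 the share stayed nearly level, at 0% and 0% between labels in injured microglia, 40% and 40% in sham microglia, 51.1% and 52.4% in border macrophages with knockout-labelled injury, and 35.5% and 38.1% between labels after sham. With equally weighted cells 368 genes passed with wild-type injury in microglia. Leaving out the Cd5l and Spp1 cluster, the shared barcodes or the cells of unnamed clusters, all chosen after seeing the data, changed no count of members. Levels of Gdf15, Gadd45g and Ddit4 in border macrophages rest on at most 46 UMIs per library.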
